A study of Mus musculus with 6 samples.

Results

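The MHC class II genes of mouse were compared between the livers of a pair of inbred strains. The set holds 10 genes: the chain genes H2-Aa, H2-Ab1, H2-Eb1 and H2-Ea, the peptide-loading genes H2-DMa and H2-DMb1, the modulators H2-Oa and H2-Ob, the invariant chain gene Cd74 and the class II transactivator gene Ciita. They were measured by all 22 of the 45037 probe sets on the array that the platform annotation pairs with one of them. Each probe set is given separately, because strains can carry different sequence under a probe. Of the 22, 19 are paired with 1 gene alone. The other 3 are shared, in a pair between H2-DMb1 and its neighbour H2-DMb2, and singly between H2-Ob and Gm20506. H2-DMb1 has no probe set of its own, so 9 of the 10 genes do, of 18193 genes in all, and H2-DMb1 cannot be told from H2-DMb2.

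The groups were 3 untreated female mice of strain NZB/BinJ (NZB) and 3 of strain SM/J (SM), all aged 8 weeks, with 1 liver array for each mouse. No transgene or induced mutation is named for either strain. Both were weaned at 3 weeks to a chow diet, had 4 hours of fasting, and had 50 mL of buffered saline passed through them before the liver was frozen. The sample titles number them as biological replicates. Values are log2 expression, and array medians lay between 6.60 and 6.66. The albumin gene Alb, which marks hepatocytes, read 14.86 to 14.90. Females lack Y-linked genes, so the highest reading of 9 probe sets for 3 such genes, 5.67, is used below as background. SM replicate 2 stood apart at Xist, the RNA that coats the inactive X chromosome, with 7.32 at the brightest probe set, against 12.61 to 12.91 on the other 5 arrays.

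MHC class II molecules carry peptides from the endosomes of antigen-presenting cells to the surface, where helper T cells read them. An alpha and a beta chain form each molecule, in mouse the A molecule (H2-Aa with H2-Ab1) and the E molecule (H2-Ea with H2-Eb1). The invariant chain Cd74 fills the groove until proteases trim it, H2-DM exchanges the remaining fragment for peptide, and H2-O restrains H2-DM. Ciita switches the set on by binding factors that sit on paired promoter elements, the X and Y boxes. In liver the cells best known for class II are dendritic cells, B cells and macrophages, including the resident Kupffer cells.

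Promoters are shown because the X and Y boxes are the elements through which these genes are known to be switched on together. RefSeq promoters of assembly GRCm38.p6 matched 6 of the 10 genes, in 7 entries, since H2-DMa has a pair of starts. Each line gives the 150 bases before a start, 5′ to 3′ along the gene. Capitals mark TGATTGG, the core of the Y box, and GCAAC, a part of the X box, where it lies 25 to 35 bases upstream of TGATTGG from start to start.
H2-Aa (chr17:34287824-34287973, minus strand): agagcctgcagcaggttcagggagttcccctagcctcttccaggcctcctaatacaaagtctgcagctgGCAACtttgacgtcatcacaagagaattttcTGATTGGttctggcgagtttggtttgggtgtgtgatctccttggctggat
H2-Eb1 (chr17:34305717-34305866, plus strand): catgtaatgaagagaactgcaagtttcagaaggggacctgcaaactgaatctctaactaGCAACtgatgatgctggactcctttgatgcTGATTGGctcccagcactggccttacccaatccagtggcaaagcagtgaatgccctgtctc
H2-DMb1 (chr17:34153041-34153190, plus strand): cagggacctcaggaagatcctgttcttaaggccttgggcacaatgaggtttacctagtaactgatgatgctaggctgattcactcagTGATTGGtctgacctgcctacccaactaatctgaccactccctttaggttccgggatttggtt
H2-Oa (chr17:34092229-34092378, plus strand): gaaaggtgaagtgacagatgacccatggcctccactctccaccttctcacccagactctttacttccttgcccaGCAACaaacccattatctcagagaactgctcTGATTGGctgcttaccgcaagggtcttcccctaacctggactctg
H2-Ob (chr17:34238755-34238904, plus strand): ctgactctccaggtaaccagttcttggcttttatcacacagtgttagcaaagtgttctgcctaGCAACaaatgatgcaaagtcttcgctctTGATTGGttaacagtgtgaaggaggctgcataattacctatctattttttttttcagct

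TGATTGG, searched on both strands, was present in these 5 genes and in neither H2-DMa window. Of 32851 promoter windows of this length, 1877 held it (5.71%). The pair GCAAC and TGATTGG was present in H2-Aa, H2-Eb1, H2-Oa and H2-Ob, 4 of the genes, and in 26 of all windows (0.0791%). The motifs do not overlap each other, and the sequences are those of the reference genome, not of NZB or SM. A match describes the letters only.

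Class II chains and the invariant chain were higher in NZB livers. By limma, 11 of the 22 probe sets passed an adjusted p of 0.05 and were higher in NZB, while 0 were lower and 11 missed it. At an unadjusted p under 0.05, 14 were higher and 0 lower, beside 13184 of all 45037 probe sets in either direction. Unadjusted counts given below can be set beside this number only loosely. They are split by direction and take 1 probe set per gene, and no unadjusted share of that kind was taken. Over the whole array, 6.09% of probe sets were higher in NZB, 8.69% were lower and 14.8% passed in either direction. Every NZB array lay above every SM array for 15 of the 22, against 18.2% of all probe sets. The median difference, NZB minus SM, was 0.31 over the 22 and 0.023 over all probe sets. The 11 belonged to the 4 chain genes (8 of 11 probe sets, median difference 0.88), to Cd74 (its 1 probe set) and to the peptide-loading genes (2 of the 7 for H2-DM and H2-O, median 0.19). By gene, 6 of the 9 with a probe set of their own had at least 1 that was higher. This favours genes with several probe sets, and no share over all genes was taken, so the count cannot be read as an excess. At the brightest probe set, H2-Aa, H2-Eb1, H2-Ea, H2-DMa and Cd74 passed, and H2-Ab1, H2-Oa, H2-Ob and Ciita did not. By that rule 7.09% of all genes were higher. The 11 became 8 without SM replicate 2, SM replicate 3 or NZB replicate 2, and 7 without NZB replicate 3. In whole liver, more class II cells and more class II RNA in each cell cannot be told apart.

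**Figure D1:**
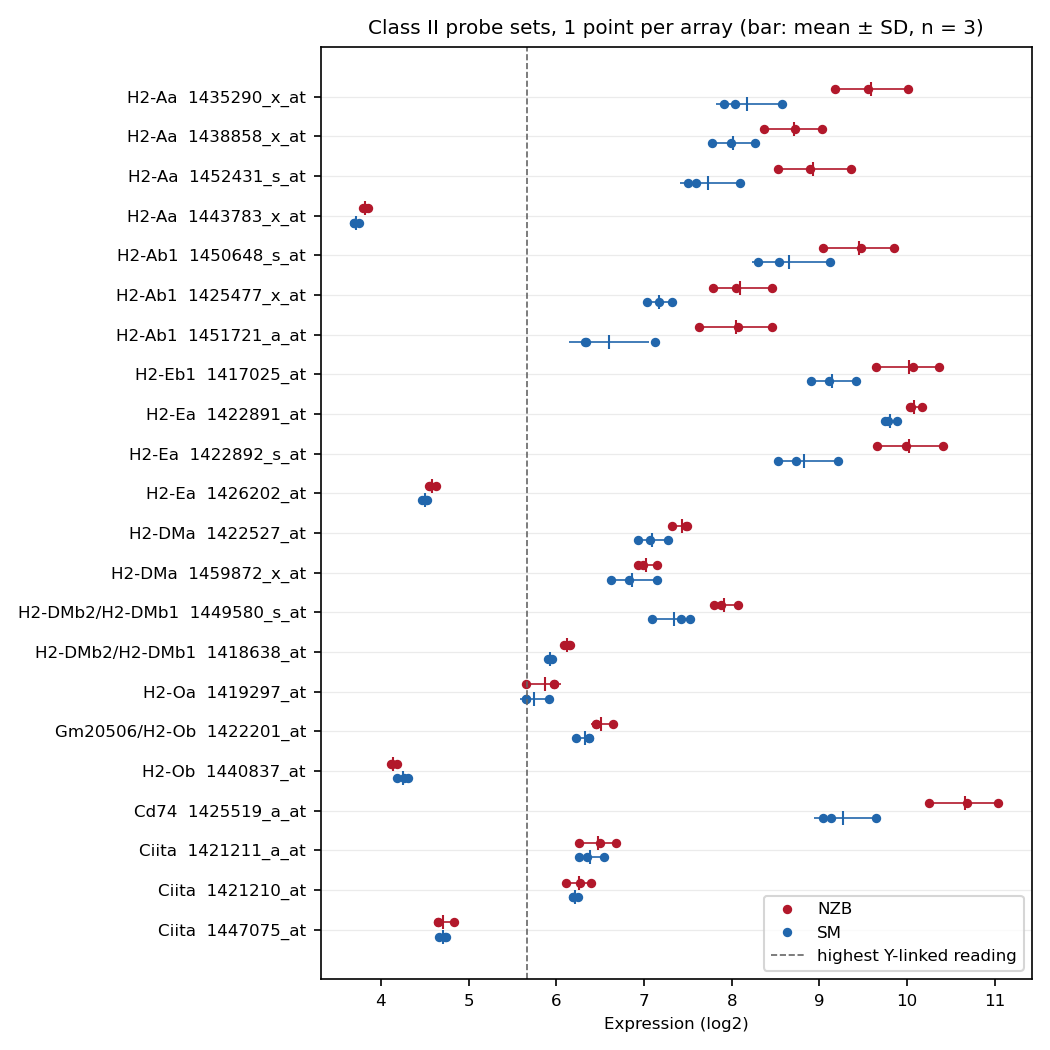
Log2 expression (x axis) of the 22 class II probe sets (rows), with NZB arrays in red above SM arrays in blue, 1 point per array, and bars for mean ± SD (n = 3 each). Red and blue points do not overlap for Cd74, H2-Aa and H2-Eb1 and do for Ciita, and the dashed line marks background at 5.67.

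The invariant chain gave the lowest adjusted p of the 22. Cd74 probe set 1425519_a_at read 10.25, 10.68 and 11.04 in NZB replicates 1, 2 and 3, against 9.64, 9.13 and 9.03 in SM replicates 1, 2 and 3. All NZB livers lay above all SM livers, by at least 0.61. Cd74 was 2.62-fold higher in NZB (95% interval 1.90 to 3.61), a log2 difference of 1.39 (SE 0.205, limma adjusted p = 0.00252). The call held in all 14 alternatives, with adjusted p from 0.00116 to 0.0168.

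H2-Aa, the alpha chain of the A molecule, was read by 4 probe sets. All 4 are marked for possible cross-hybridization by their endings, _x_at or _s_at, so the alternative without such probe sets leaves none for this gene. The brightest, 1435290_x_at, read 9.18, 9.56 and 10.01 in NZB, against 8.57, 7.91 and 8.03 in SM. The strains did not overlap, and the level was 2.66-fold higher in NZB (95% interval 1.89 to 3.73, log2 difference 1.41, SE 0.216, limma adjusted p = 0.00306). Probe set 1452431_s_at read 8.53, 8.89 and 9.35 in NZB, against 8.10, 7.50 and 7.59 in SM, again without overlap, a difference of 1.20 (SE 0.209, limma adjusted p = 0.00564). Probe set 1438858_x_at read 8.36, 8.72 and 9.03 in NZB, against 8.27, 7.77 and 7.99 in SM. Its highest SM liver came within 0.096 of its lowest NZB liver, and its difference was 0.70 (SE 0.169, limma adjusted p = 0.0252). That call ended when SM replicate 2, SM replicate 3, NZB replicate 2 or NZB replicate 3 was left out (adjusted p = 0.0553 to 0.0915, over all its alternatives 0.0107 to 0.0915). The last, 1443783_x_at, stayed between 3.69 and 3.86 on all arrays, under background.

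H2-Ab1, the beta chain of the A molecule, was read by 3 probe sets. Probe set 1451721_a_at read 7.63, 8.07 and 8.46 in NZB, against 7.13, 6.34 and 6.33 in SM, without overlap, and its difference of 1.45 (SE 0.244, 2.74-fold, limma adjusted p = 0.00481) was the largest of the 22. Probe set 1425477_x_at read 7.78, 8.05 and 8.46 in NZB, against 7.32, 7.03 and 7.17 in SM, also without overlap, a difference of 0.92 (SE 0.153, limma adjusted p = 0.00445). The brightest, 1450648_s_at, read 9.04, 9.47 and 9.85 in NZB, against 9.12, 8.30 and 8.54 in SM. Here SM replicate 1 lay above NZB replicate 1, and the difference of 0.80 (SE 0.233, 95% interval 0.27 to 1.32) missed the threshold (limma adjusted p = 0.0501). It passed in 6 of 13 alternatives, over which the adjusted p ran from 0.0112 to 0.167.

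H2-Eb1, the beta chain of the E molecule, was read by 1 probe set, 1417025_at, at 9.65, 10.07 and 10.36 in NZB, against 9.42, 8.90 and 9.11 in SM. The strains did not overlap, and the level was 1.84-fold higher in NZB (95% interval 1.39 to 2.44, log2 difference 0.88, SE 0.178, limma adjusted p = 0.0112). The call held in all 14 alternatives (0.00474 to 0.0468).

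H2-Ea encodes the alpha chain of the E molecule, and RefSeq lists it as a transcribed pseudogene in the reference strain, C57BL/6J. A pair of its probe sets read well over background in both strains. Probe set 1422892_s_at read 9.66, 9.99 and 10.41 in NZB, against 9.21, 8.53 and 8.74 in SM, a 2.29-fold higher level in NZB (log2 difference 1.19, SE 0.204, limma adjusted p = 0.00518). Probe set 1422891_at read 10.03, 10.04 and 10.17 in NZB, against 9.88, 9.75 and 9.79 in SM, a 1.21-fold higher level (log2 difference 0.27, SE 0.0690, limma adjusted p = 0.0299). Neither overlapped between the strains. Of these, 1422892_s_at is marked for possible cross-hybridization and 1422891_at is not. The livers of a strain spread over 0.75 in NZB and 0.67 in SM at 1422892_s_at, and over 0.14 in NZB and 0.13 in SM at 1422891_at. The call of 1422891_at ended in 7 of 14 alternatives, which aligned the medians (0.0535), used the replicate block (0.0537) or left out 1 array other than SM replicate 1 (0.0517 to 0.111), over a range of 0.00788 to 0.111. The third, 1426202_at, lay between 4.47 and 4.63, under background.

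**Figure D2:**
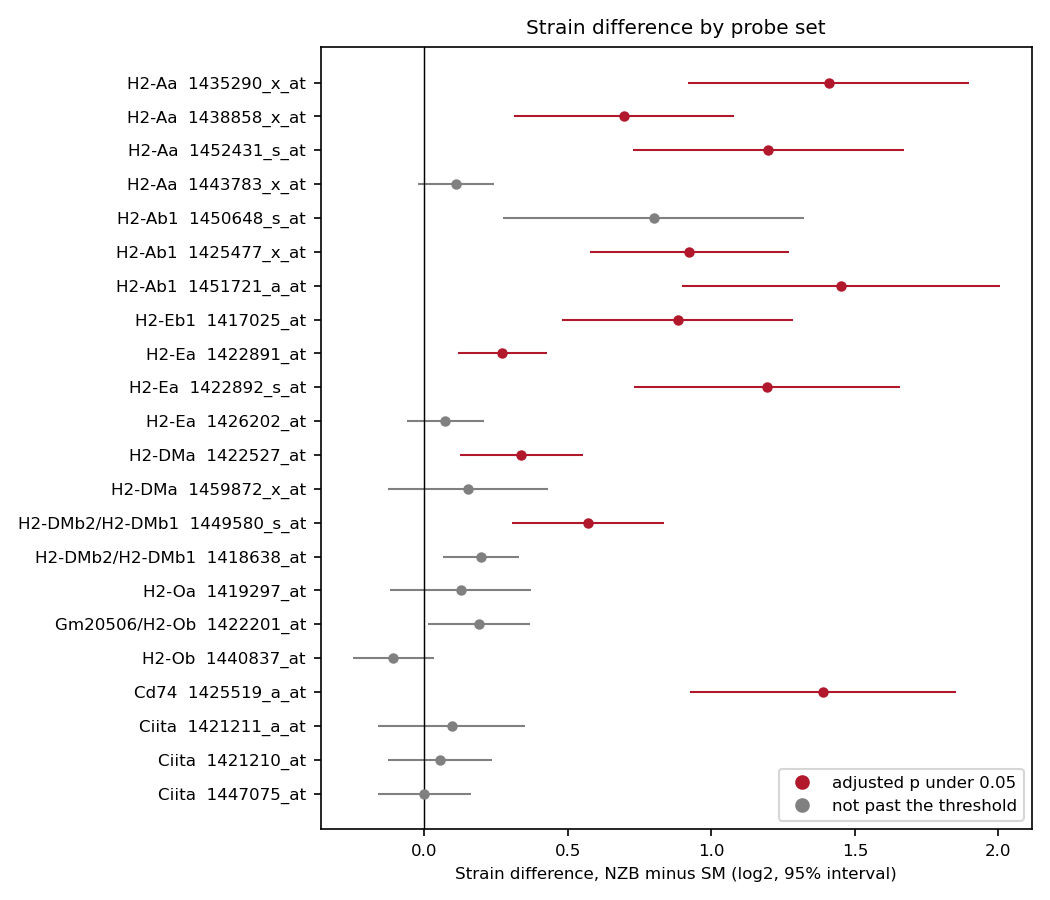
Difference in log2 expression, NZB minus SM (x axis), for each of the 22 probe sets (rows), with its 95% interval from the limma fit of 3 NZB against 3 SM arrays. Red marks the 11 past the adjusted threshold, which run from 0.27 to 1.45, and all 3 Ciita intervals include 0.

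Probe sets of 1 gene did not all give the same strain difference. For each gene with several probe sets of its own, the gap between each and the brightest was taken on every array and compared between strains, over 16752 pairs. Of all pairs 12.1% passed the adjusted threshold by limma, as did 4 of the 10 class II pairs. In 3 of the 10 the other probe set lay under background, where the gap mostly restates the difference at the brightest, so these show nothing about unequal probe sets. Among the 11088 pairs with both means over background, a restriction chosen after seeing the data, 14.4% passed, as did 3 of 7 class II pairs. In H2-Aa, the difference at 1438858_x_at minus that at 1435290_x_at was -0.71 (SE 0.0964, limma adjusted p = 0.00163). In H2-Ab1, the difference at 1451721_a_at minus that at 1450648_s_at was 0.65 (SE 0.0911, limma adjusted p = 0.00189). In H2-Ea, the difference at 1422892_s_at minus that at 1422891_at was 0.92 (SE 0.170, limma adjusted p = 0.00797). The adjusted p of each of these 3 is over all 16752 pairs. Their calls held in each of the 9 alternatives run over all pairs. The part of strain sequence under the probes in these gaps was not tested.

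The peptide-loading genes were read by 4 probe sets, of which 2 passed. Probe set 1449580_s_at, shared by H2-DMb1 and H2-DMb2, read 7.80, 7.88 and 8.07 in NZB, against 7.52, 7.09 and 7.43 in SM, without overlap, a difference of 0.57 (SE 0.117, 1.48-fold, limma adjusted p = 0.0119). This call ended without NZB replicate 3 (adjusted p = 0.0549, over all its alternatives 0.00542 to 0.0549). The dimmer shared probe set, 1418638_at, read 6.08, 6.14 and 6.15 in NZB, against 5.95, 5.91 and 5.92 in SM, and its difference of 0.20 missed the threshold (SE 0.0583, limma adjusted p = 0.0530). The own probe sets of H2-DMb2 differed by -0.090 (1419744_at, limma adjusted p = 0.557), 0.24 (1443687_x_at, 0.0438) and 0.18 (1443686_at, 0.242). For H2-DMa, the partner chain, 1422527_at read 7.49, 7.31 and 7.48 in NZB, against 7.27, 6.93 and 7.07 in SM. The strains lay 0.044 apart at the nearest, with a difference of 0.34 (SE 0.0946, 1.26-fold, limma adjusted p = 0.0431). Its call ended in 7 of 14 alternatives, with quantile normalization (0.0586), with aligned medians (0.0721) and when any array except SM replicate 1 was left out (0.0520 to 0.140), over a range of 0.0129 to 0.140. Its other probe set, 1459872_x_at, read 6.93, 6.98 and 7.15 in NZB, against 7.15, 6.83 and 6.63 in SM, with overlap (difference 0.15, 95% interval -0.13 to 0.43, limma adjusted p = 0.458).

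H2-Oa and H2-Ob, the modulators of H2-DM, are known mainly from B cells and thymus. H2-Oa (1419297_at) read 5.66, 5.98 and 5.97 in NZB, against 5.65, 5.65 and 5.92 in SM, and 3 of the 6 arrays passed 5.67. The strains overlapped (difference 0.13, 95% interval -0.12 to 0.37, limma adjusted p = 0.485). The own probe set of H2-Ob, 1440837_at, stayed between 4.12 and 4.31, under background. The one shared with Gm20506, 1422201_at, read 6.45, 6.45 and 6.65 in NZB, against 6.23, 6.37 and 6.38 in SM, a difference of 0.19 that missed the threshold (SE 0.0783, limma adjusted p = 0.145).

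Ciita, the transactivator of these genes, did not pass the test at any of its 3 probe sets. Probe set 1421211_a_at read 6.26, 6.50 and 6.68 in NZB, against 6.54, 6.35 and 6.26 in SM, and 1421210_at read 6.11, 6.40 and 6.27 in NZB, against 6.19, 6.19 and 6.25 in SM. The strains overlapped at both. The difference at 1421211_a_at was 0.10 (95% interval -0.16 to 0.35, limma adjusted p = 0.631), which leaves room for a level up to 1.28-fold higher in NZB. At 1421210_at it was 0.054 (95% interval -0.13 to 0.24, limma adjusted p = 0.712). The third, 1447075_at, stayed between 4.65 and 4.83, under background.

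Mice of the same strain also differed in a shared order in these genes. In all 11 probe sets that were higher in NZB, SM replicate 1 was the highest SM liver. In 10 of them NZB replicate 3 was the highest and NZB replicate 1 the lowest NZB liver, with H2-DMa as the exception. Among all 22 class II probe sets, called or not, SM replicate 1 was the highest SM liver in 18. The NZB livers stood in that order, 3 over 2 over 1, in 16 of the 22. Over all 45037 probe sets, SM replicate 1 was the highest SM liver in 34.4%, and the NZB livers stood in that order in 17.9%. The pooled SD of Cd74 was 0.36, at percentile 99.1 of all probe sets, and that of H2-Aa 1435290_x_at was 0.38, at percentile 99.3. Probe sets share the RNA of each mouse and are not independent observations of this order.

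**Figure D3:**
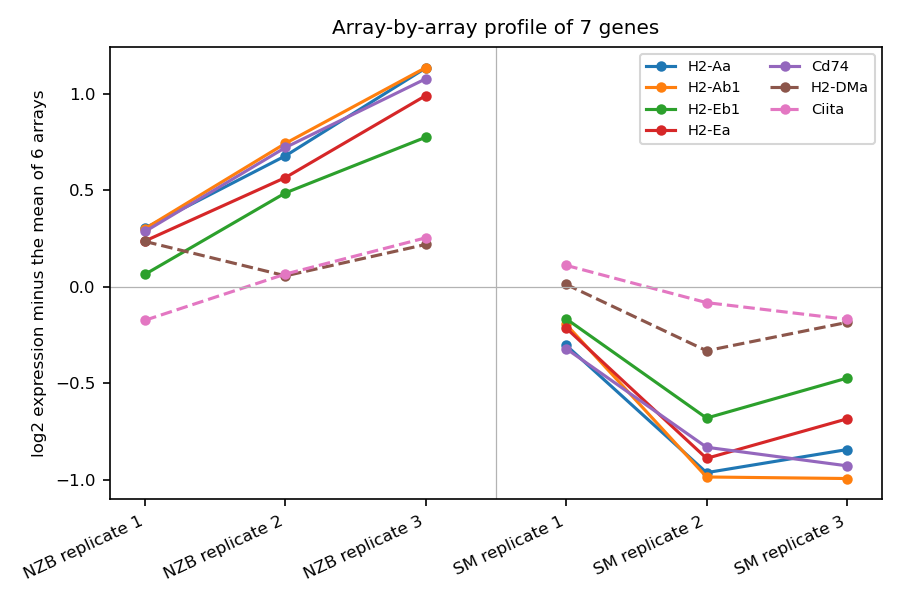
Log2 expression of 7 genes, each at its probe set with the largest difference and minus its mean over the 6 arrays (y axis), for the 3 NZB and then the 3 SM arrays (x axis). Lines only join the points of 1 gene, since replicates have no order. At these probe sets the chains and Cd74 run nearly parallel while H2-DMa and Ciita (dashed) stay nearer to 0. H2-Ea is drawn at 1422892_s_at, and at its brightest probe set, 1422891_at, the difference was only 0.27.

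Genes with a pattern like that of Cd74 were ranked over the 6 arrays by the root mean square difference of log2 values centred on each gene's mean, at the brightest probe set of each of 18192 other genes. H2-Aa was the nearest (0.0707). H2-Eb1 ranked 15 (0.27) and H2-Ab1 ranked 41 (0.31), while H2-DMa ranked 739 (0.59), H2-Ea at 1422891_at ranked 899 (0.61) and Ciita ranked 2171 (0.66). H2-Oa ranked 4013 (0.70) and H2-Ob, read under background, ranked 13099 (0.80). The 5 nearest genes outside the class II set were Cd52 (0.13), a surface glycoprotein of leukocytes, Slc10a2 (0.21), a bile acid transporter, Cyp7b1 (0.21), an oxysterol hydroxylase, Ptgds (0.22), a prostaglandin D synthase, and Slc39a2 (0.22), a zinc transporter. Slc10a2 read under background on all 6 arrays. Cd52 read 8.13, 8.44 and 8.67 in NZB, against 7.31, 6.97 and 7.06 in SM. These genes were picked for their pattern, so no test of them is given.

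Most of the class II genes studied lie together on chromosome 17, with other genes between or beside them. There were 9 such neighbours, among them the class II genes H2-DMb2 and H2-Eb2, and Btnl2 and Notch4 beyond H2-Ea. Each at its brightest probe set, 3 passed as higher in NZB and 0 as lower by limma (4 and 0 unadjusted). Among all genes so taken, 7.09% were higher and 11.2% were lower. The 3 serve class I loading: the immunoproteasome subunit genes Psmb9 (difference 0.47, SE 0.0761, limma adjusted p = 0.00412) and Psmb8 (0.33, SE 0.0803, limma adjusted p = 0.0252) and the peptide transporter gene Tap1 (0.36, SE 0.0641, limma adjusted p = 0.00624). Psmb9 read 8.98, 9.15 and 9.22 in NZB, against 8.70, 8.61 and 8.63 in SM, without overlap. Tap2, the partner of Tap1, differed by -0.041 (95% interval -0.18 to 0.10), and the class II beta gene H2-Eb2, between H2-Eb1 and H2-Ea, by 0.12 (95% interval -0.041 to 0.29), and neither passed. The strains' haplotypes across the cluster were not analysed here.

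**Figure D4:**
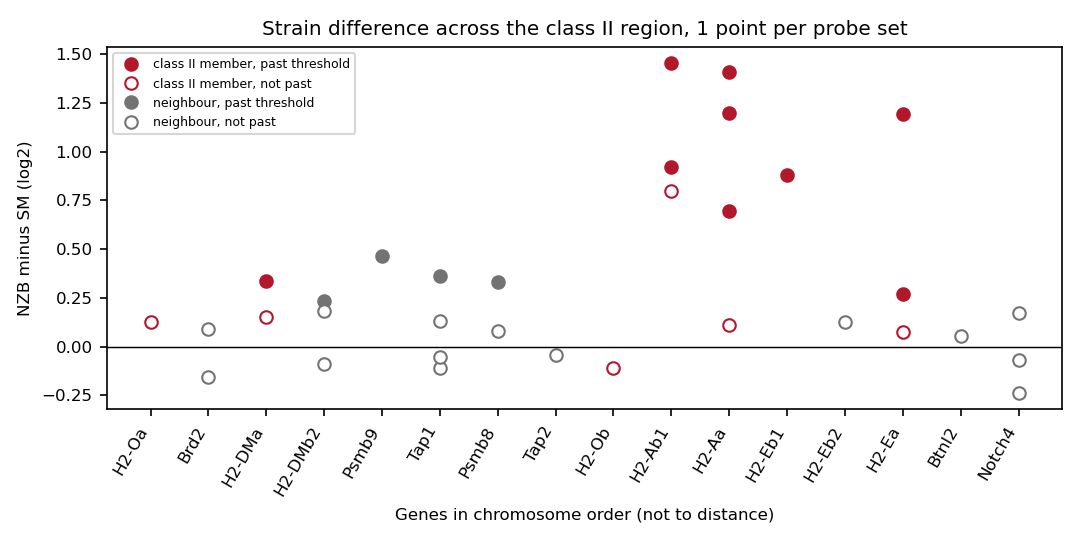
Difference in log2 expression, NZB minus SM (y axis), of each single-gene probe set of class II genes (red) and their neighbours (grey), with genes in chromosome 17 order and not to distance (x axis), filled where past the adjusted threshold. The highest neighbour is Psmb9 at 0.47, and the probe sets shared by H2-DMb1 and H2-DMb2 are left out.

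Of 21 measured genes that act on class II promoters or carry the interferon gamma signal to Ciita, 2 passed as higher in NZB and 4 as lower by limma, against 5 and 6 at an unadjusted p under 0.05. Over all genes 7.09% were higher and 11.2% were lower, and 2 of 21 is near that share. The unadjusted counts stand beside 13184 of 45037 probe sets in either direction. The higher ones were Irf1, an interferon-induced activator of Ciita (difference 0.35, SE 0.0846, limma adjusted p = 0.0235), and Spi1, the myeloid and B cell factor PU.1 (0.27, SE 0.0635, limma adjusted p = 0.0208). Irf1 read 9.93, 10.10 and 10.18 in NZB, against 9.84, 9.69 and 9.63 in SM. The lower ones were the acetyltransferase gene Ep300 (-0.44, SE 0.0701, limma adjusted p = 0.00373), the kinase gene Jak1 (-0.34, SE 0.0596, limma adjusted p = 0.00616), the methyltransferase gene Carm1 (-0.27) and the Y box factor gene Nfyc (-0.25). The X box factor genes Rfx5, Rfxap and Rfxank missed the threshold, with differences of 0.025, -0.051 and -0.024. The count of 2 became 0 without NZB replicate 3 and 1 without any other single array or with the replicate block. The count of 4 became 2 with quantile normalization and without SM replicate 2, SM replicate 3, NZB replicate 2 or NZB replicate 3. Irf1 lost its call without each of those same 4 arrays (adjusted p = 0.0606 to 0.0936) and with the replicate block (0.0521). Spi1 lost it without SM replicate 1, NZB replicate 1 or NZB replicate 3 (adjusted p = 0.0552 to 0.0809).

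Of 13 measured genes that trim the invariant chain or prepare antigen, 4 passed as higher and 0 as lower by limma (4 and 0 unadjusted), where 7.09% of all genes were higher and 11.2% lower. Ctss, the cathepsin that trims Cd74 in B cells and dendritic cells, read 10.53, 10.70 and 10.73 in NZB, against 9.78, 9.91 and 9.88 in SM. It was 1.73-fold higher in NZB (log2 difference 0.79, SE 0.0741, limma adjusted p = 0.000218), without overlap. Ifi30, a thiol reductase of antigen processing, differed by 0.38 (SE 0.0985, limma adjusted p = 0.0319). Leaving out any array except SM replicate 1 ended that call (adjusted p = 0.0577 to 0.112), as did aligned medians (0.0575). The others were the cathepsin inhibitor gene Cst3 (0.37, SE 0.0723, limma adjusted p = 0.00966) and Sppl2a, a protease that cleaves the membrane stub of Cd74 (0.37, SE 0.0646, limma adjusted p = 0.00604). Of 6 costimulatory genes of antigen-presenting cells, 1 passed as higher and 0 as lower by limma, against 2 and 0 unadjusted, too few to set apart from the shares of all genes (7.09% higher, 11.2% lower). It was Cd274, which encodes an inhibitory ligand for T cells (0.37, SE 0.0671, limma adjusted p = 0.00698).

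Markers of cells that can carry class II differed between strains in the same direction in part, and their part in the class II difference was not tested. Of 14 Kupffer cell and macrophage markers, 9 passed as higher and 1 as lower (7.09% and 11.2% of all genes), with a median difference of 0.36. Their summed level, as log2 of the sum over genes, was 13.71 to 13.95 in NZB, against 13.20 to 13.38 in SM. The lysozyme gene Lyz2 read 10.53, 10.81 and 10.65 in NZB, against 8.61, 8.49 and 7.92 in SM, and was 5.01-fold higher (log2 difference 2.32, SE 0.162, limma adjusted p = 4.1e-05). The secreted macrophage protein gene Cd5l was also higher (0.75, SE 0.0931, limma adjusted p = 0.00102). The scavenger receptor gene Marco was lower (-0.66, SE 0.144, limma adjusted p = 0.0155), and Clec4f, which marks Kupffer cells, differed by 0.033 (95% interval -0.16 to 0.23). The 9 became 5 without NZB replicate 2 or NZB replicate 3. All 9 were highest among NZB livers in replicate 2, and 10 of the 11 higher class II probe sets were highest in replicate 3. Both counts cover only probe sets picked as higher and read from the same 3 NZB livers, and their contrast was not tested. SM replicate 1 was the lowest SM liver for Csf1r, Cd68, C1qa, C1qb and C1qc and the highest for Adgre1 and Lyz2. Marco lost its call without NZB replicate 1 or NZB replicate 3 (adjusted p = 0.0560 to 0.0588).

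Of 11 measured B cell markers, 2 passed as higher and 0 as lower by limma, beside 7.09% higher and 11.2% lower among all genes. At an unadjusted p under 0.05, 7 were higher and 0 lower, beside 13184 of all 45037 probe sets in either direction. The 2 became 4 with array weights or 1 probe set per gene, 3 without SM replicate 3 and 1 without any other single array. The count was also 1 with quantile normalization, aligned medians, trended and robust variances, the replicate block, or without probe sets annotated for cross-hybridization. The summed level was 9.95 to 10.05 in NZB, against 9.77 to 9.80 in SM. Ms4a1, the gene of CD20, read 6.68, 6.56 and 6.69 in NZB, against 6.17, 6.33 and 6.27 in SM, without overlap (0.38, SE 0.0703, limma adjusted p = 0.00712). Bank1, a B cell scaffold gene, differed by 0.22 (SE 0.0627, limma adjusted p = 0.0499) and lost its call without any single array (adjusted p = 0.0592 to 0.155) and in 5 other alternatives. The defining B cell receptor gene Cd79a read 5.82, 6.08 and 5.92 in NZB, against 5.80, 5.71 and 5.77 in SM, near background, and missed the threshold (limma adjusted p = 0.150). Of 11 measured dendritic cell markers, 0 passed in either direction by limma. At an unadjusted p under 0.05, which 13184 of 45037 probe sets met, 3 were higher and 1 lower. Without SM replicate 3, 2 passed as higher. Their summed level was 10.38 to 10.44 in NZB, against 10.27 to 10.39 in SM. Itgax, the CD11c gene, differed by 0.074 (95% interval -0.10 to 0.24) and Flt3, a receptor of dendritic cell precursors, by 0.11 (95% interval -0.036 to 0.25).

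Of 11 measured T cell markers, 4 passed as higher and 0 as lower by limma (4 and 0 unadjusted, and 2 and 0 without SM replicate 2), beside 7.09% and 11.2% of all genes, with a summed level of 10.04 to 10.12 in NZB, against 9.90 to 9.98 in SM. The CD3 chain gene Cd3e read 8.14, 8.10 and 7.88 in NZB, against 7.71, 7.62 and 7.80 in SM, while the other CD3 chain genes among the 4, Cd3d and Cd3g, read between 6.11 and 6.57 and, under background, between 4.83 and 5.31. The surface glycoprotein gene Thy1 lay between 5.22 and 5.69, over background on 1 array. Of 10 markers of sinusoidal endothelium, 3 passed as higher and 2 as lower, beside 7.09% and 11.2% of all genes, with a summed level of 13.05 to 13.22 in NZB, against 13.01 to 13.07 in SM. The scavenger receptor gene Stab2 (0.97, SE 0.146, limma adjusted p = 0.00277) and the adhesion molecule gene Pecam1 (0.34, SE 0.0648, limma adjusted p = 0.00883) were higher, and the hyaluronan receptor gene Lyve1 (-0.65, SE 0.0815, limma adjusted p = 0.00106) and the lectin gene Clec4g (-0.34, SE 0.0658, limma adjusted p = 0.00936) were lower. Of 7 measured hepatocyte markers, 2 were lower and 0 higher (also unadjusted), beside 11.2% lower and 7.09% higher among all genes. The lower ones were the aminotransferase gene Tat (-0.73, SE 0.0910, limma adjusted p = 0.00103) and the nuclear receptor gene Hnf4a (-0.38, SE 0.0851, limma adjusted p = 0.0169). The summed level was 16.72 to 16.75 in NZB, against 16.80 to 16.83 in SM. This sum adds unlogged levels, so a change in a bright gene such as Tat moves it. Of the 7 differences, 4 were negative and 3 positive. The positive ones, of Alb (0.020), Ttr (0.061) and Apoa1 (0.018), missed the threshold. Hnf4a lost its call without SM replicate 2 (adjusted p = 0.0513).

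**Figure D5:**
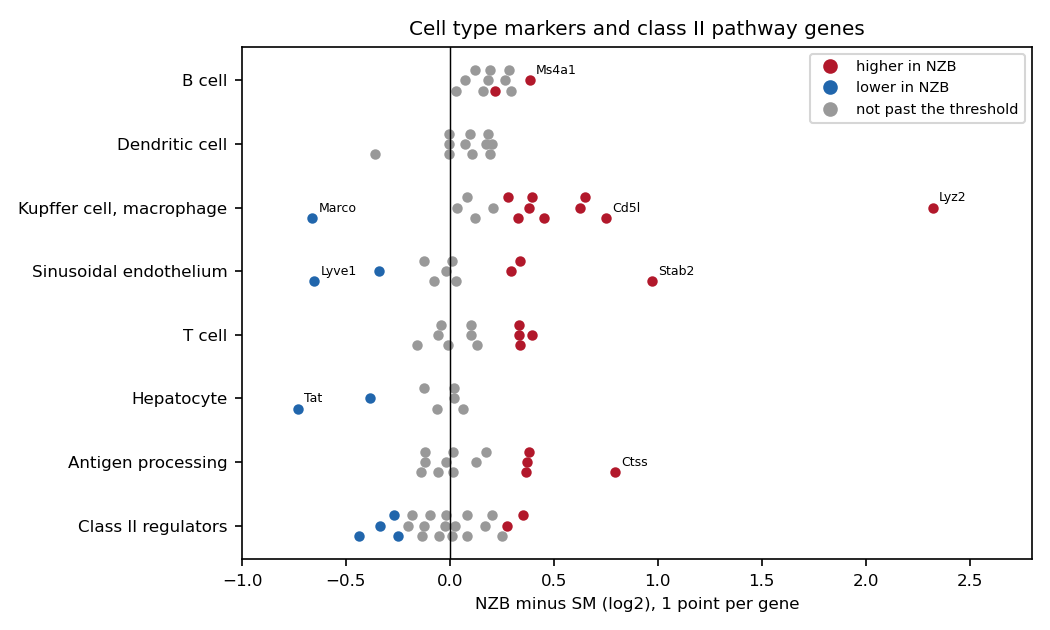
Difference in log2 expression, NZB minus SM (x axis), of each measured gene of 8 lists (rows), 1 point per gene at its brightest probe set, red where higher, blue where lower and grey where not past the adjusted threshold. The macrophage row has 9 red points, with Lyz2 at 2.32, and the dendritic cell row has no point past the threshold.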

How the data were processed

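Liver RNA of 6 mice was measured on 1 array each. Per the submitters' processing notes the authors used RMA, which normalizes arrays and combines the probes of each probe set; version and settings were not given. The deposited values were read as log2 from their range, with a maximum of 14.90.

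Probe sets were named from the platform annotation, with symbols updated through RefSeq. Of 45037 probe sets, 34945 had 1 gene (34741 matched), 932 several and 9160 none. All were fitted with limma 3.58.1 in R 4.3.3 (NZB minus SM), and p-values were adjusted by Benjamini-Hochberg over all of them. The fits were tested on simulated data. The number of arrays limits the precision. Figures used matplotlib 3.10.9 in Python 3.11.15.

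Members and lists were chosen with earlier results of these data known. A listed gene is represented by its brightest own probe set, and up to 2 per direction, those with the largest differences past the threshold, are named for each list; further genes were named after their values were seen. Some listed genes were not analysed here. Alternatives were quantile normalization, aligned medians, trended and robust variances, array weights, a filter on the dimmest 25% of probe sets, a replicate block, 1 probe set per gene, omission of probe sets annotated for cross-hybridization, and leaving out each array.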

Additional observations from a re-analysis of the deposited data

How the results depend on the processing

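Probe sets higher in NZB numbered 2745 and lower ones 3914, against 1482 to 2482 higher and 2259 to 3904 lower without single arrays, and 1541 higher and 2286 lower with 1 probe set per gene, where 18193 were tested. The share of calls that were higher was 41.2% as deposited, 31.3% with aligned medians and 46% after quantile normalization. Class II probe sets higher in NZB numbered 11, and 7 to 12 without single arrays. They numbered 6 with 1 probe set per gene and 5 when those annotated for cross-hybridization were omitted, which both test fewer of the 22. Class II probe sets lower in NZB numbered 0 under each alternative. Pairs that differed numbered 2021, and 892 to 2035 without single arrays and 1601 with both means over background, an alternative added after seeing the data.

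Both strains have replicates 1 to 3. Same-numbered mice deviated from their strain means with correlations of 0.037, -0.055 and 0.025 across probe sets, and differently numbered mice with -0.11 to 0.083. The main fit does not pair mice by number, and with 3 mice per strain these values cannot settle whether they share an effect. With the replicate block, 2398 probe sets were higher and 3608 lower, with 10 class II ones higher and 2147 pairs.

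Differences that changed sign lay near 0 and passed no threshold. Leaving out single arrays gave -0.0070 to 0.21 for Ciita 1421211_a_at, -0.016 to 0.13 for 1421210_at and -0.062 to 0.030 for 1447075_at, with 0.010 without SM replicate 1, 0.014 without SM replicate 3 and 0.021 with array weights. It gave -0.13 to 0.055 for the Ciita pair 1421210_at and 1421211_a_at, and -0.037 to 0.23 for the H2-Ab1 pair 1425477_x_at and 1450648_s_at. Of 282 alternative values for the 22 probe sets, 249 kept direction and side of the threshold, 19 fell short of it, 7 newly passed and 7 changed sign. The cause was not tested. Readings near background limit H2-Oa and Ciita, and readings under it the own probe set of H2-Ob.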
